A study of Homo sapiens with 3 samples.

Results

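The 10 genes described here encode ETS transcription factors: ETS1, ETS2, ETV1, ETV4, ETV5, ELK1, ELK3, ELK4, ELF1 and FLI1. They were grouped as factors downstream of the Ras, RAF, MEK and ERK kinase cascade, and whether each responds to ERK was not tested. They were followed through all 38 probe sets that name exactly one of them and no other gene, out of 54613 probe sets on the array. A probe set is a group of short probes that together give 1 signal for a transcript. The cells were IMR-90 ER:Ras, a derivative of the IMR-90 human lung fibroblasts that carries an inducible Ras protein, activated by 4-hydroxytamoxifen (4-OHT). They were profiled in 3 states: oncogene-induced senescence (OIS), for which 100 nM 4-OHT was given for 6 days, replicative senescence (RS), for which the cells were passaged for 10 weeks, and untreated growth. All 3 cultures carry ER:Ras, and only the OIS culture received 4-OHT. The labels name no culture given 4-OHT without ER:Ras. With a single array for each culture and no replicate, differences between cultures could not be tested, and precision is limited by there being 3 arrays.

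ETS factors share a DNA-binding domain that recognises a GGAA core. ERK phosphorylates several of them directly, which alters their activity without any change in their mRNA, and an expression array does not read that step. ETS1 and ETS2 are activators switched on through phosphorylation beside their Pointed domain. ETV1, ETV4 and ETV5 form the PEA3 subfamily, whose proteins are unstable and whose genes are repressed by capicua (CIC), a repressor that ERK signaling relieves. ELK1, ELK3 and ELK4 are ternary complex factors, which bind with the serum response factor SRF at immediate early genes. ELF1 and FLI1 are best known from blood cells, and FLI1 also from endothelium.

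Promoter sequence from RefSeq (GRCh38.p14) was at hand for 6 of the 10 genes: ELF1, ELK1, ELK3, ELK4, ETS2 and ETV1. Shown are the 250 bases before the furthest upstream start of ETV1 and of ETS2, which had higher signals in OIS, and of ELK4, whose ratio was small but whose promoter holds the most matches to the ETS consensus. Capitals mark matches on either strand to CCGGAA, the ETS consensus, or to TGAATGNA, an octamer bound by capicua. Each sequence is written 5′ to 3′ on the strand of its gene.
ETV1, chr7:13991426-13991675, minus strand: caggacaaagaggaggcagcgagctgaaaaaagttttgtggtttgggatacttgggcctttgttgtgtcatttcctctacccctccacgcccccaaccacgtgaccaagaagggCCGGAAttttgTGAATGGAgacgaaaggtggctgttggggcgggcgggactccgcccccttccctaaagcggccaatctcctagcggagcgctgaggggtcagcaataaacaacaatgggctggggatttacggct
ETS2, chr21:38804933-38805182, plus strand: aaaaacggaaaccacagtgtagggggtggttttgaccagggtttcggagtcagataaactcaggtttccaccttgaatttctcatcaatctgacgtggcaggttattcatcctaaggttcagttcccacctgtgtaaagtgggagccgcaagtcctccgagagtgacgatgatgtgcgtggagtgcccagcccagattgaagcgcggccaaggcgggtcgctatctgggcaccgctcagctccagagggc
ELK4, chr1:205632012-205632261, minus strand: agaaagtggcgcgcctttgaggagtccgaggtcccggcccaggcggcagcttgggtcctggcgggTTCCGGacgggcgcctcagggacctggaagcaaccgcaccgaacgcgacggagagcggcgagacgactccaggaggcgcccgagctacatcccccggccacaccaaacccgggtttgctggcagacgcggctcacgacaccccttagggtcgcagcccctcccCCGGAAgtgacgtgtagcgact
The ETV1 sequence has 1 ETS consensus match, starting 136 bases before the start, and 1 capicua octamer, starting 125 bases before it. No other of the 6 promoters has the octamer, which occurs in 3.37% of 27305 promoters of the same length. ELK4 has 2 ETS consensus matches, starting 185 and 22 bases before its start, and the promoters of ETS2, ELF1, ELK1 and ELK3 have none, while 14.8% of all promoters hold at least 1. ETV1 has 6 annotated starts, of which 1 has the octamer and 3 the ETS consensus in the 250 bases before them. The bare GGAA core, which CCGGAA contains, is in 92.8% of promoters. An AP-1 site (TGANTCA), a CRE site (TGACGTCA) and the CArG box of SRF were searched too and occur in none of the 6, against 6.57%, 1.75% and 1.15% of all promoters. The SP1 box (GGGCGG), in 42.2% of all promoters, has 3 matches in ETV1, 4 in ELK3 and 2 in ELF1 and 0 in the other 3. These are matches of letters, and the arrays did not measure binding.

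Values are MAS5 signals on a linear scale. Signals below 45.5, the median of all values, were raised to that floor before ratios were taken. A gene was represented by its brightest probe set, and counted as measured when that probe set passed the floor on at least 1 array. By this rule all 10 genes were measured, among 13466 of 19775 named genes. Of the 38 probe sets 31 passed the floor on at least 1 array and 26 on all 3. Repeat measurement exists only where a gene has further probe sets. Over the 6759 genes with at least 2 above the floor, the spread between the brightest pair corresponds to an SD per probe set of 0.36 in log2 OIS over growing, 0.33 in log2 RS over growing and 0.37 in log2 OIS over RS, called the probe error below. It does not cover differences between cultures. Of 12 fibroblast markers 12 were above the floor on every array, with a summed signal of 165519 in OIS, 185090 in RS and 173146 in growing cells. Of these 12 only DCN was past 2-fold in OIS, at 2.59-fold lower, and only S100A4 in RS, at 3.21-fold higher. THY1 was 1.49-fold lower, and FAP 1.28-fold and S100A4 1.82-fold higher, in OIS. In such bulk RNA, fewer cells of a type and less RNA per cell cannot be told apart.

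OIS cells had higher signals of 3 ETS factors, ETV1, ETV4 and ETS2, while the other 7 lay between 1.13-fold below and 1.28-fold above growing cells. ETV1 and ETV4 were more than 2-fold higher than in growing cells, and ETS2 just short of it. Of the 10 genes 2 exceeded growing cells by 2-fold or more in OIS, as did 4.92% of all measured genes, and 0 were lower by that much, as were 6.63% of all. The median log2 ratio of the 10 was 0.22, with a range of -0.18 to 1.43, against a median of 0.00 over all measured genes. In RS 0 of the 10 were at least 2-fold higher than in growing cells (3.72% of measured genes) and 0 at least 2-fold lower (5.58%), counts near those shares, with a median of -0.08. Both comparisons use the same growing array. Set directly against each other, OIS exceeded RS by at least 2-fold for 3 genes, ETV4, ETV1 and ETS2 (5.48% of measured genes), and was lower by that much for 0 (5.27%). With the median of each gene's probe sets only ETV4 kept this, since ETV1 then had a log2 ratio of 0.80 and ETS2 of 0.79.

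**Figure D1:**
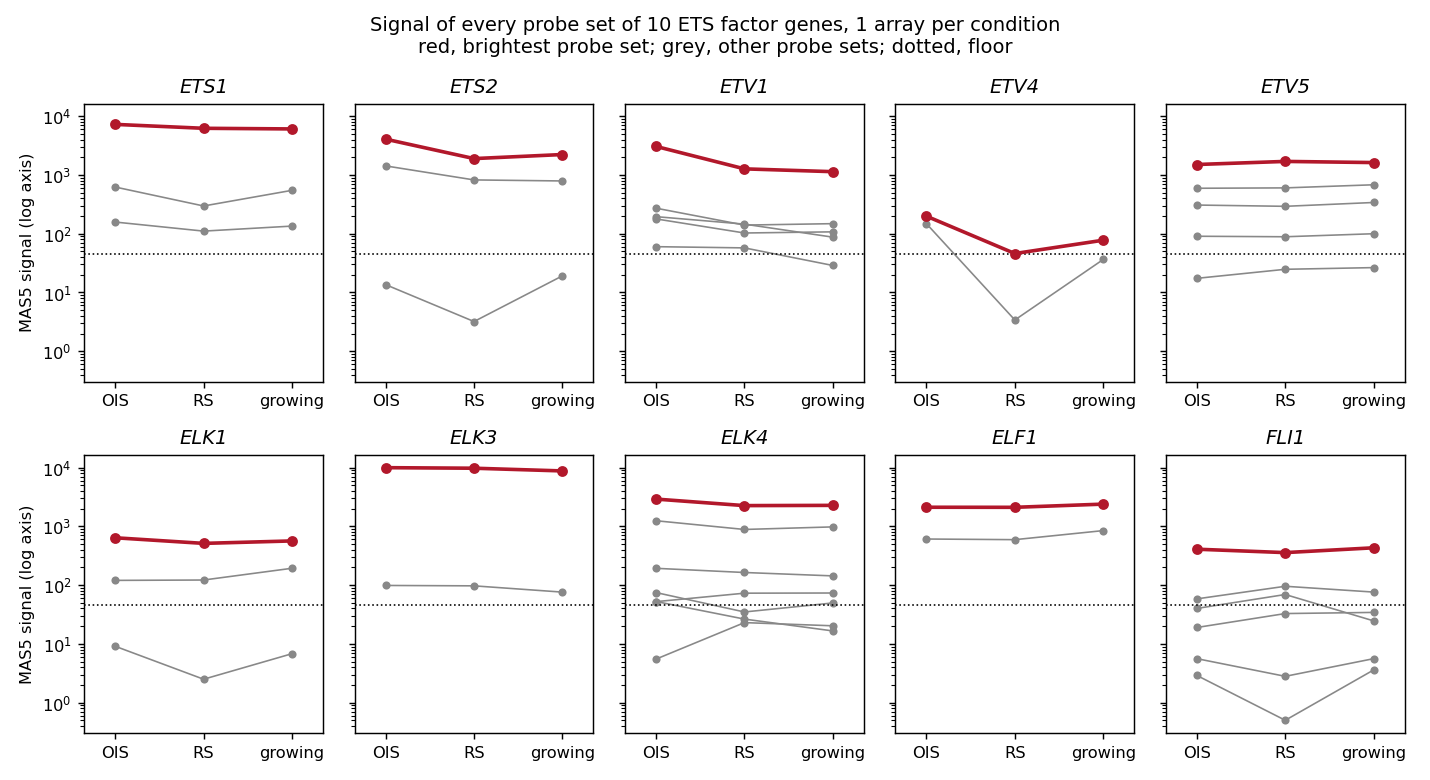
MAS5 signal on a log axis of every probe set of the 10 genes on the OIS, RS and growing arrays, 1 array each. Red lines join the brightest probe set, grey lines the others, and the dotted line is the floor of 45.5. The OIS point stands above both other arrays in the red lines of ETV1, ETV4 and ETS2, and the red lines of the other genes are close to flat.

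Among the 26 probe sets above the floor on all 3 arrays, the highest of the 3 signals was on the OIS array for 16 (61.5%), on the RS array for 2 (7.69%) and on the growing array for 8 (30.8%). Over all 20936 such named probe sets the shares were 32.7% for OIS, 32.0% for RS and 35.3% for growing cells. Probe sets of 1 gene read the same RNA and are not independent.

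The PEA3 subfamily held the most unequal members. ETV1 gave a signal of 3065 in OIS, 1272 in RS and 1138.5 in growing cells with its brightest probe set, 221911_at. The OIS array stands alone, with RS and growing cells close together. That is 2.69-fold higher in OIS than in growing cells (log2 1.43) and 2.41-fold higher than in RS (log2 1.27), while RS was 1.12-fold higher than growing cells. A ratio as high as that of OIS over growing cells was found for 2.71% of measured genes. All 5 ETV1 probe sets had their highest signal in OIS, but they did not give the same size. Their log2 ratios of OIS over growing cells ran from 0.40 to 1.43, the lowest being a bound, since 221910_at was at 60.2 in OIS, 57.4 in RS and 28.8, below the floor, in growing cells. Probe set 217053_x_at was at 195 in OIS, 145.7 in RS and 87.4 in growing cells, so for it RS was 1.67-fold higher than growing cells, where the brightest gave 1.12-fold. The 2 remaining, 206501_x_at and 217061_s_at, had OIS over growing ratios of 1.83-fold and 1.66-fold. Names ending in _s_at or _x_at, as for these 2 and 217053_x_at, mark sets that can hybridize to more than 1 transcript. The same holds below, among others for 211603_s_at of ETV4 and 201329_s_at of ETS2. With the median of all its probe sets ETV1 had a log2 ratio of 0.88 for OIS over growing cells, below 2-fold.

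ETV4, an ETS activator first described through the adenovirus E1A enhancer, was a dim gene with a difference in each direction. Its brightest probe set, 1554576_a_at, was at 199 in OIS, 46.0 in RS and 77.6 in growing cells. OIS is the highest and RS the lowest, at the edge of the floor. The signal was thus 2.56-fold higher in OIS than in growing cells (log2 1.36), 1.69-fold lower in RS than in growing cells (log2 -0.75), and 4.33-fold higher in OIS than in RS (log2 2.11). A ratio of OIS over RS as high was found for 1.23% of measured genes. The other probe set, 211603_s_at, was at 148 in OIS, 3.4 in RS and 36.5 in growing cells. This is at least 3.26-fold higher in OIS than in either other culture, which were both below the floor and so have no order between them. With a floor of 88.8, the 60th percentile, RS and growing cells were both at the floor, so ETV4 had no ratio between them and its log2 ratio of OIS over RS was 1.16, below that of ETV1, which stayed at 1.27.

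ETV5, the remaining PEA3 member, did not share the OIS signal of its relatives. Probe set 203349_s_at was at 1508 in OIS, 1702 in RS and 1627 in growing cells. The 3 arrays are close and OIS is the lowest of them. OIS was 1.08-fold lower than growing cells, and RS 1.05-fold higher. The 3 other ETV5 probe sets above the floor had log2 ratios of OIS over growing cells of -0.20 to -0.14 and of RS over growing cells of -0.22 to -0.17, all smaller in size than the probe error. Their log2 ratios of OIS over RS lay between -0.02 and 0.07.

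**Figure D2:**
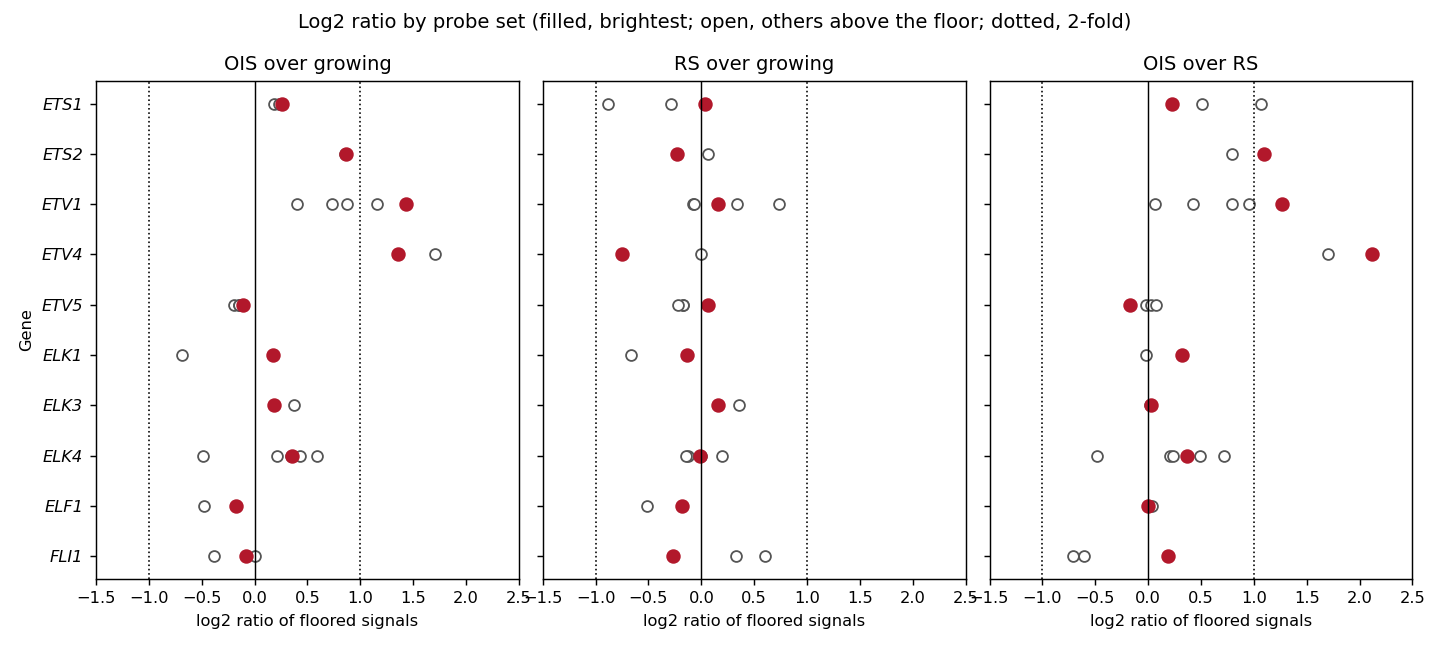
Log2 ratio of floored signals for each probe set above the floor on at least 1 array, by gene, for OIS over growing cells, RS over growing cells and OIS over RS. Filled points are the brightest probe set of a gene, open points the others, and dotted lines mark 2-fold. ETV1, ETV4 and ETS2, and also ETS1 and ELK3, lie right of 0 with all their points where OIS is set over growing cells or over RS. No point passes 2-fold for RS over growing cells.

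ETS2, an activator studied as an inducer of the p16 gene CDKN2A, was read alike by 2 bright probe sets. Probe set 201328_at was at 4075 in OIS, 1902 in RS and 2229.8 in growing cells. Probe set 201329_s_at was at 1428 in OIS, 824 in RS and 791 in growing cells. In both the OIS array is the highest, and RS and growing cells are close. The ratios of OIS over growing cells were 1.83-fold and 1.80-fold, so they differ by far less than the probe error (log2 0.87 and 0.85). Of all measured genes 6.21% had a ratio as high as the larger. Against RS the OIS signal was 2.14-fold and 1.73-fold higher. RS was 1.17-fold lower than growing cells in the first and 1.04-fold higher in the second. The remaining probe set, 241193_at, was below the floor on all 3 arrays.

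ETS1, the closest relative of ETS2, had a signal of 7269 in OIS, 6236 in RS and 6082 in growing cells by 224833_at. OIS is slightly above the other arrays, at 1.20-fold over growing cells. The 3 ETS1 probe sets were alike for OIS over growing cells, with log2 ratios of 0.19 to 0.26. They were not alike for RS: 1555355_a_at was at 624 in OIS, 297 in RS and 548 in growing cells, 1.85-fold lower in RS than in growing cells, whereas 224833_at was 1.03-fold higher. Dimmer still, 214447_at was at 158 in OIS, 110.8 in RS and 135 in growing cells, 1.22-fold lower in RS. For the first of these dimmer sets OIS was 2.10-fold higher than RS, against 1.17-fold for the brightest.

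By their brightest probe sets the ternary complex factors were nearly level across the 3 cultures. ELK3, also called Net, represses its targets until ERK phosphorylates it, and was at 9986 in OIS, 9774 in RS and 8788 in growing cells by 221773_at. Both senescent cultures are slightly above growing cells, by 1.14-fold in OIS and 1.11-fold in RS. A dim ELK3 probe set, 206127_at, had the same order at 98.7 in OIS, 97.2 in RS and 76.0 in growing cells. ELK4, also called SAP1, was at 2914 in OIS, 2257 in RS and 2279 in growing cells by 225159_s_at, 1.28-fold higher in OIS than in growing cells. Its second brightest probe set, 238761_at, gave 1247 in OIS, 886 in RS and 980 in growing cells, or 1.27-fold. Of 6 ELK4 probe sets above the floor on at least 1 array, 5 had a log2 ratio of OIS over growing cells above 0 and 1, 1556618_at, had -0.49, at a signal of 52.3 in OIS, 72.9 in RS and 73.4 in growing cells.

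ELK1, which forms the classic ternary complex with SRF on DNA, was read by 2 probe sets above the floor. They went opposite ways for OIS over growing cells. Probe set 203617_x_at was at 640 in OIS, 513.5 in RS and 565 in growing cells, 1.13-fold higher in OIS than in growing cells. Probe set 210376_x_at was at 120.4 in OIS, 122 in RS and 194 in growing cells, 1.61-fold lower in OIS and 1.59-fold lower in RS. No direction can be given for ELK1 in OIS from these. In RS both were lower than in growing cells, the first by 1.10-fold, which is less than the probe error. All 3 of its probe sets carry a name ending in _s_at or _x_at, which marks sets that can hybridize to more than 1 transcript.

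ELF1 and FLI1 were no higher in either senescent culture by their brightest probe sets. ELF1 was at 2117 in OIS, 2111 in RS and 2392 in growing cells by 212418_at, and at 609 in OIS, 594 in RS and 847 in growing cells by 212420_at. In both sets growing cells are the highest and the senescent cultures are almost equal. The ratios to growing cells were 1.13-fold and 1.39-fold lower in OIS, and 1.13-fold and 1.43-fold lower in RS. FLI1 was at 409 in OIS, 358 in RS and 432 in growing cells by 204236_at, 1.06-fold lower in OIS and 1.21-fold lower in RS. Of its 6 probe sets 3 were below the floor on all arrays. The 2 others above it were dim and put RS above growing cells instead. Probe set 210786_s_at was at 58.3 in OIS, 95.6 in RS and 76.1 in growing cells, 1.26-fold higher in RS, and 211825_s_at was at 40.1 in OIS, 69.2 in RS and 24.6 in growing cells, at least 1.52-fold higher in RS. No direction can be given for FLI1 in RS from these. Markers of the blood and endothelial cells that also express FLI1 were mostly dim. Of 9 blood cell markers 5 were above the floor in OIS, 5 in RS and 3 in growing cells, with summed signals of 411, 454 and 297 in that order, and PTPRC and the ETS factor SPI1 were at or below it on all arrays. Of the 7 measured, 0 were past 2-fold in OIS, with CD34 at least 1.85-fold and ITGAM 1.37-fold higher, LCP1 at least 1.06-fold lower and CD14 at or below the floor in both cultures. In RS 1 of them, RUNX3, was at least 3.33-fold higher, at 152 against 33.3 in growing cells. Of 12 endothelial markers 5 were above it in OIS, 5 in RS and 4 in growing cells, with summed signals of 2264, 2345 and 1520.5, while CDH5, KDR, CLDN5 and the ETS factor ERG were at or below it on all arrays. Of the 5 measured endothelial markers 3, ROBO4, PECAM1 and VWF, were at least 2-fold higher in OIS, at 576, 135 and 130.5 there against 105, 49.0 and 59.7 in growing cells, and 0 of the 5 in RS. TEK was 1.02-fold and EGFL7 at least 1.04-fold higher in OIS. At 1275 in OIS, 2033 in RS and 1251 in growing cells, TEK made up most of each summed endothelial signal. In RS TEK was 1.62-fold, VWF 1.36-fold, PECAM1 1.08-fold and EGFL7 at least 1.18-fold higher, and ROBO4 1.80-fold lower. The part of such cells in the FLI1 and other ETS factor values was not tested.

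**Figure D3:**
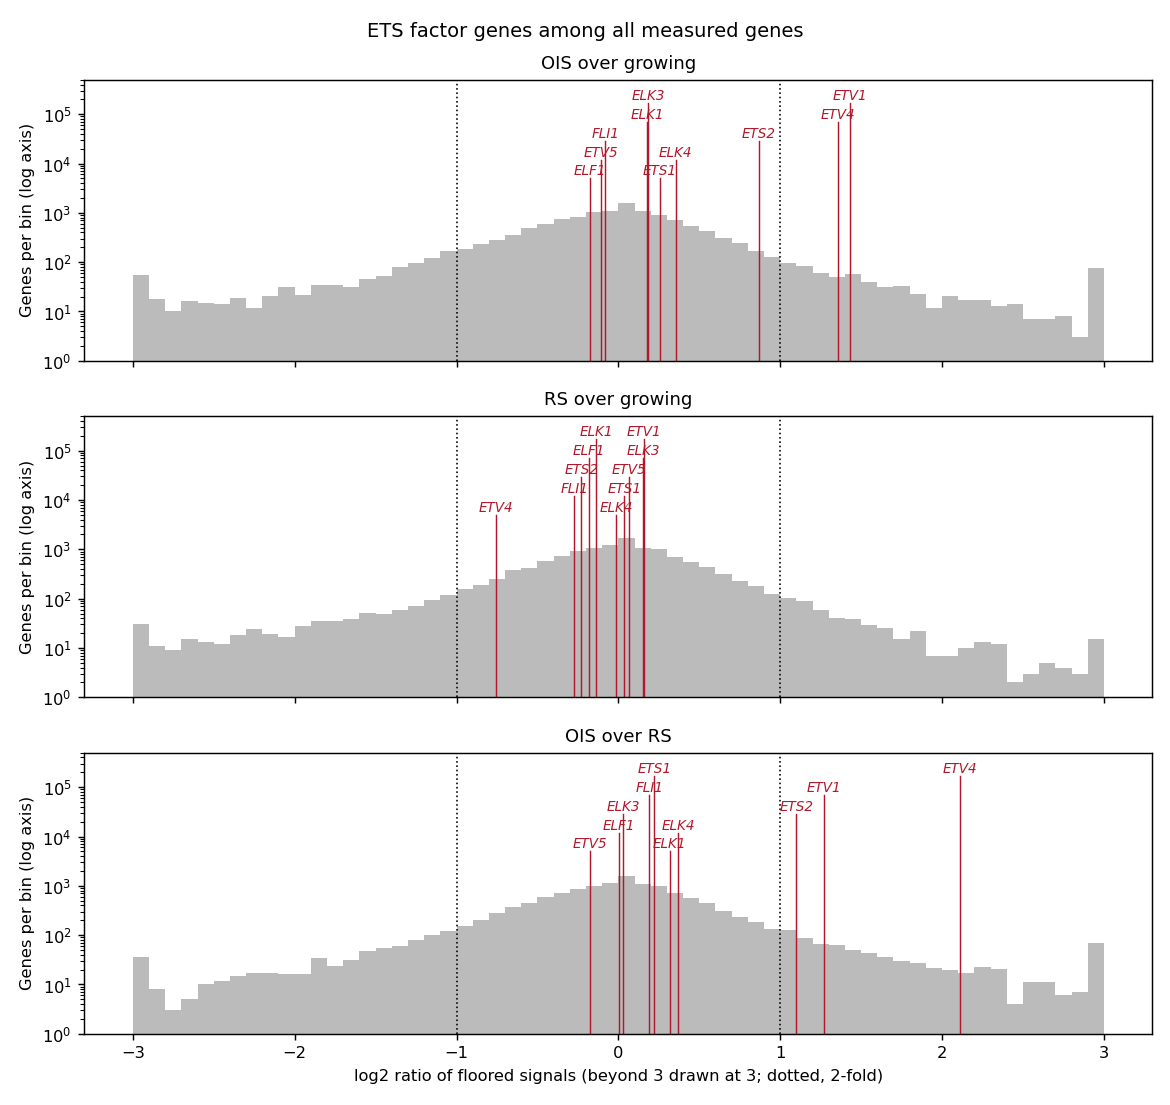
Histograms of the log2 ratio over the 13466 measured genes in 3 comparisons, with the number of genes per bin on a log axis, ratios beyond 3 drawn at 3, and red lines at the 10 ETS factor genes. In OIS over growing cells ETV1 and ETV4 lie past the dotted 2-fold line and ETS2 just before it, and in RS over growing cells all 10 lie inside the lines.

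The genes with the pattern most like ETV1 and ETV4 were sought by the distance between log2 ratios of OIS and of RS over growing cells, among 11295 genes above the floor on all 3 arrays. Nearest to ETV1 were DOCK4, an activator of small GTPases, at a distance of 0.03, the antisense transcript ZMIZ1-AS1 at 0.03 and the adhesion molecule PECAM1 at 0.06. DOCK4 was at 3730 in OIS, 1583 in RS and 1411 in growing cells, the same order as ETV1. Nearest to ETV4 were AKAP12, a scaffold for protein kinase A, at 0.10, NFKBIA, the inhibitor of NF-kappaB, at 0.13 and CCDC102B at 0.13. NFKBIA was at 5830 in OIS, 1287 in RS and 2093 in growing cells, again with RS the lowest. Within a distance of 0.1 there were 10 genes around ETV1 and 1 around ETV4. With 3 arrays such likeness describes only 2 ratios per gene, both over the same growing array.

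Elsewhere in the ETS family, one gene that is not among the 10 had a far larger ratio than any of them. EHF, an ETS factor of epithelia, was at 4156.5 in OIS, 597 in RS and 13.9 in growing cells by 225645_at. The growing array is below the floor, so the OIS signal was at least 91.4-fold above growing cells and the RS signal at least 13.1-fold, and it was 6.96-fold higher in OIS than in RS. All 6 EHF probe sets had their highest signal in OIS, although the other 5 were dim, between 49.2 and 122.5 there. In RS and in growing cells those 5 were below the floor, so the RS ratio rests on 225645_at alone. EHF is itself 1 of 11 epithelial markers, of which 4 were above the floor on each array and CDH1, ESRP1, GRHL2 and KRT5 at or below it on all 3. Of the 5 measured, EHF alone was at least 2-fold higher in OIS and EPCAM was 3.20-fold lower, whereas in RS EHF, KRT8 and KRT18 were at least 2-fold higher. KRT8 was 1.19-fold higher and KRT19 at least 1.22-fold lower in OIS. EPCAM was at 49.1 in OIS, 194 in RS and 157 in growing cells. The summed epithelial signal was 7407 in OIS, 7182 in RS and 3447 in growing cells, with KRT18 at 2963, 6010 and 2987 in the same order. The part of epithelial cells in the EHF values was not tested.

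Past 2-fold in OIS were 2 of the 10 measured other ETS genes, EHF and SPDEF, both higher, and the list median was 0.26 in log2 ratio. All measured genes had shares of 4.92% higher and 6.63% lower by that much in OIS, and 3.72% and 5.58% in RS. SPDEF was at 102 in OIS, 124 in RS and 46.7 in growing cells by its brightest probe set, but a second, 214403_x_at, gave 92.9, 51.7 and 118 in that order, so its direction is not settled. The repressors ERF, itself a direct ERK substrate, and ETV3 were 1.95-fold and 1.66-fold higher in OIS, and 1.41-fold and 1.43-fold higher in RS. They are named because they are ETS repressors, a choice made after their values were seen. The lowest of the list in OIS were ELF4 at 1.66-fold and ETV7 at 1.34-fold lower. In RS EHF and SPDEF were again at least 2-fold higher by those probe sets and 1, ELF2, was 2.04-fold lower.

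Partners and modifiers of ETS factors showed 0 of 12 past 2-fold in either direction in OIS, with a median log2 ratio of 0.03. Shares of all measured genes past 2-fold were 4.92% higher and 6.63% lower in OIS, and 3.72% and 5.58% in RS. CIC, the repressor of the PEA3 genes, was at 257 in OIS, 293 in RS and 250.1 in growing cells, and its partner ATXN1 was 1.72-fold higher in OIS. SRF was 1.27-fold higher, whereas its coactivator MRTFB was 1.82-fold and DET1, a part of the ligase that degrades PEA3 proteins, 1.52-fold lower. In RS 1 of the 12, MRTFB, was 2.05-fold lower. The ERK cascade list had a median of 0.11 in OIS over 11 measured genes of 17 listed, the other 6 being not analysed here. These 11 include MAPK8 and MAPK9, which encode JNK kinases rather than ERK. In OIS MAPK8 was 1.15-fold higher and MAPK9 1.08-fold lower. Of the 11, 1 was at least 2-fold higher in OIS, RPS6KA3, the ERK-activated kinase RSK2. Its signal was 4384 in OIS, 2161 in RS and 2008 in growing cells. MAP2K1, which encodes MEK1, was 1.59-fold higher, and RPS6KA2 and KSR1 were 1.70-fold and 1.51-fold lower. HRAS, looked up after its values were seen because ER:Ras is the agent in OIS, was at 11748 in OIS, 2553 in RS and 7696 in growing cells, 1.53-fold higher in OIS and 3.01-fold lower in RS. Whether that probe set reads the ER:Ras transcript is not given in the sources used here.

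Lists of genes grouped here as ERK or MAPK output had larger medians than the ETS factors. ERK activity was not measured, and whether these genes report it in these cultures was not tested. Across the 13466 measured genes, 4.92% passed 2-fold upward and 6.63% downward in OIS, against 3.72% and 5.58% in RS. In OIS 7 of 13 measured ERK feedback inhibitors were higher by 2-fold or more and 0 lower, with a median log2 ratio of 1.15. Their highest were the phosphatase DUSP4 at 29.8-fold and SPRY4, a Sprouty inhibitor, at 4.17-fold, and their lowest DUSP9 at least 1.31-fold lower and DUSP7 at 1.27-fold lower. In RS 4 of the 13 were at least 2-fold higher, with a median of 0.33, DUSP4 at 4.87-fold. Serum response targets of the ELK factors had 8 of 13 at least 2-fold higher in OIS and 0 lower, with a median of 1.22, against 1 of 13 in RS with a median of 0.35. EGR3 and EGR4, zinc finger immediate early factors, were at least 28.3-fold and at least 8.54-fold higher in OIS, while the matricellular CCN1 was 1.26-fold and ZFP36 1.02-fold lower. The MAPK output list, which shares DUSP4, DUSP6, SPRY2, SPRY4, EGR1 and IER3 with these lists, had 7 of 11 at least 2-fold higher and 1, FOSL1, 2.18-fold lower in OIS. Its highest were DUSP4 and IER3, a stress-inducible survival gene, at 5.11-fold, and EPHA4 was 1.16-fold higher. In RS 3 of 11 were at least 2-fold higher, with a median of 0.83.

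Genes reported as ETS targets in fibroblasts or endothelium were mixed. In OIS 6 of 22 were at least 2-fold higher and 2 lower (median log2 ratio 0.64), against 4.92% and 6.63% of all measured genes. In RS 3 were higher and 1 lower by that much (median 0.13), against 3.72% and 5.58% of all. The matrix metalloproteinase MMP3 was at 20539 in OIS, 1322 in RS and 1417 in growing cells, 14.5-fold higher in OIS. The VEGF receptor FLT1 was 11.1-fold higher in OIS and 4.81-fold in RS. The lowest were MET, the HGF receptor, at 272 in OIS, 3223 in RS and 2146 in growing cells, 7.89-fold lower in OIS, and NRP1 at 2.02-fold lower. CDKN2A, set beside ETS2 for the link given above and after its values were seen, was at 1040 in OIS, 1115 in RS and 432.5 in growing cells. It was thus higher than in growing cells in both senescent cultures, by 2.40-fold in OIS and 2.58-fold in RS. For ETS2, RS was 1.17-fold below growing cells by one bright probe set and 1.04-fold above by the other. A link between ETS2 and CDKN2A in these cultures was not tested.

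**Figure D4:**
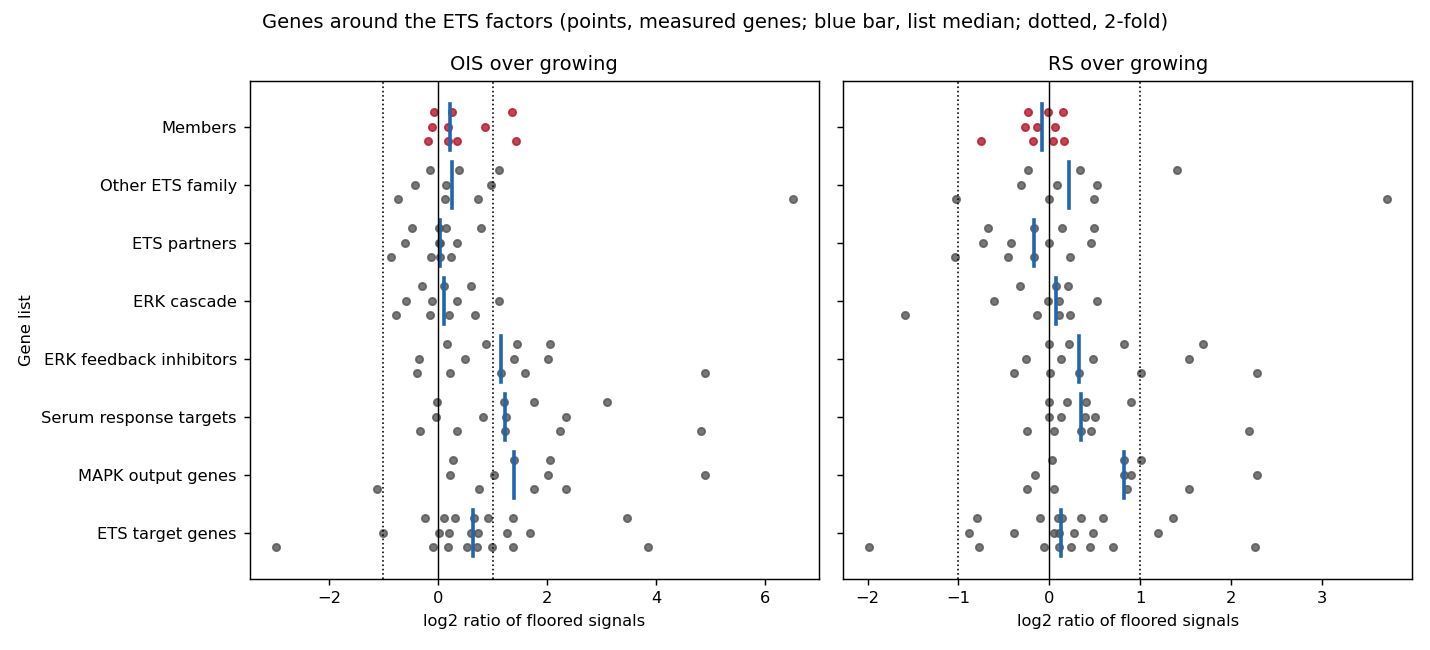
Log2 ratio of each measured gene for OIS over growing cells (left) and RS over growing cells (right), for the 10 ETS factor genes in red and 7 lists of related genes in grey, with list medians as blue bars and 2-fold as dotted lines. The medians of feedback inhibitors, serum response targets and MAPK output genes lie past 2-fold on the left, at 1.15, 1.22 and 1.39, where the ETS factors have 0.22.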

How the data were processed

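RNA of 3 cultures was labelled with biotin by the standard Affymetrix procedure, per the labels' protocols, and read on 1 array each. The authors deposited 1 intensity per probe set on a linear scale, computed with MAS5 per the submitters' processing notes, with no version or settings given. This method subtracts background and scales each array by 1 factor, so a shift common to all genes is removed. The 2% trimmed means were 497 on each array. Groups came from the sample titles. No detection calls were used.

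Genes were named from the platform annotation: 41091 probe sets name 1 gene, 1801 several and 11721 none, and only the first were used. Intensities were floored at the median and log2 ratios taken. With 1 array per condition no p-value or SE was computed. The ETS genes, gene lists and named-gene rule (all ETS genes listed, and the 2 highest and 2 lowest of each other list by OIS over growing cells, and the 3 most alike genes) were chosen with earlier results of these data known. Other named genes, such as VWF, RUNX3, KRT18, CIC, ELF2, ERF, ETV3, HRAS and CDKN2A, were chosen after their values were seen. The steps were tested on simulated data with changes of at least 3-fold planted in bright genes only. Smaller changes, and changes in dim genes such as ETV4, were not simulated. Alternatives were quantile normalization, median centring, floors at the 25th and 60th percentile (11.7 and 88.8), a pseudocount of 16 without a floor, no filter, the median of probe sets, leaving out _s_at and _x_at sets, and 3-fold. Promoters are 250-base RefSeq windows, 1 per gene. Python 3.11.15, numpy 2.4.6, pandas 2.3.3 and matplotlib 3.10.9 were used.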

Additional observations from a re-analysis of the deposited data

Results flagged for a closer look

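By its brightest probe set ETV4 went opposite ways in the 2 senescent cultures relative to growing cells, each time by more than the probe error. That error is pooled over genes of all signal levels and was not estimated for dim genes alone. Its log2 ratio was 1.36 for OIS over growing cells and -0.75 for RS over growing cells, with signals of 199 in OIS, 46.0 in RS and 77.6 in growing cells. The difference was not tested, since each culture had 1 array and both ratios share the growing array. The RS signal stood at the edge of the floor of 45.5. The other ETV4 probe set, 211603_s_at, was below the floor in both RS and growing cells and gives no order between them.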

How the results depend on the processing

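No paired analysis was possible because each condition had 1 array. Of the 9 alternatives, 2 could not move the ETS factor genes, since the median ratios were already 0.00 before centring and all 10 genes passed the filter. The counts past 2-fold held under 5 of the other 7 in all 3 comparisons, the lower floor included. Taking each gene's median over its probe sets, 1 gene in place of 2 was at least 2-fold higher in OIS than in growing cells, and 1 in place of 3 in OIS than in RS. The shares over all genes also went down, to 3.41% and 3.72%. At 3-fold the counts were 0 and 1, with 2.16% and 2.26% of all genes, which follows from the stricter size. No setting gave a gene at least 2-fold lower, or any past 2-fold in RS over growing cells. Of 177 single ratios under 6 of those alternatives (the other is the fold size) 172 moved by less than the probe error, 5 by more and 0 of those past 2-fold changed sign. The 177 and the 172 include the ratios under the lower floor, which could not move. The 5 were all of ETV1 or ETV4. ETV1 had 0.88 in OIS against growing cells and 0.80 in OIS against RS with that median. ETV4 had -0.38 for RS over growing cells with that median. With the floor at the 60th percentile ETV4 had 0.00 in RS against growing cells and 1.16 in OIS against RS, since its dimmer signals are then at the floor. The ETS1, ELK1 and FLI1 values depend on the probe set chosen. Dim signals limit ETV4 most, and no value covers the difference between replicate cultures.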
